A study of Mus musculus with 2 samples.

Results

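Levels of 8 genes of glycogen metabolism were followed through single-nucleus RNA-Seq (snRNA-Seq) of mouse gastrocnemius-plantaris (GP) muscle, a calf muscle group of the hindlimb. They are Pygm, Phka1, Phkb, Phkg1, Gys1, Gbe1, Ugp2 and Gyg. The genes were taken by symbol, for their known roles, and make 8 of the 27998 genes in the deposited tables. Glycogen is the branched glucose store of muscle fibers, laid down at rest and broken down during contraction. Of the 8 genes, 4 belong to breakdown. Pygm encodes muscle glycogen phosphorylase, which releases glucose units from the chains, and Phka1, Phkb and Phkg1 encode the muscle α, the β and the muscle catalytic γ subunits of phosphorylase kinase, which switches the phosphorylase on when calcium rises. The other 4 belong to synthesis. Gyg encodes glycogenin, the protein primer on which a particle starts, Ugp2 makes UDP-glucose, Gys1 encodes the muscle glycogen synthase that adds it to the chains, and Gbe1 encodes the branching enzyme. Fast glycolytic fibers are known for drawing heavily on this store. The grouping into breakdown and synthesis was used for description after the levels had been seen.

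The libraries were made to compare the transcripts of muscle nuclei with and without Net39, a transmembrane protein of the nuclear envelope encoded by Plpp7. Ctrl mice were Net39 fl/fl without Cre, and cKO mice were HSACreERT2;Net39 fl/fl, in which a tamoxifen-inducible Cre under the human skeletal actin promoter removes the floxed first exon in muscle fibers. Both groups carried the floxed allele, shared the B6C3F1 background, received tamoxifen and were taken at 5 months of age, 3 months after the injections, and the study's methods speak of male mice. Each group was 1 library. The protocol in the labels has 3 muscles pooled per condition, while the sample titles name 1 mouse each. Either way there were no replicates, and no test between Ctrl and cKO was possible. Nuclei of 1 library are not replicates of a condition. Levels are CPM, a gene's unique molecular identifiers (UMIs, 1 per captured RNA molecule) over all UMIs of the nuclei in question, scaled so that all genes add up to the same total, and every interval is a 95% interval for counting error only. A level of 1 gene is compared between nuclei and never with the level of another gene, since CPM is not scaled to length.

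The deposited libraries held 10410316 UMIs in 3863 Ctrl barcodes and 8446070 UMIs in 3994 cKO barcodes, and 5 barcodes occurred in both after filtering. Among the 3526 Ctrl and 3595 cKO nuclei used, 2985 and 3290 fell into myonuclear clusters. The Ctrl myonuclei held more UMIs each, with a median of 2141 against 1643.5 in cKO, and Malat1 took 26.6% of their UMIs against 31.3%. Of 11 fiber markers, all 11 were higher in myonuclei than in the remaining nuclei of both libraries, by 1.33-fold to 2.38-fold. Some of these markers also served to place clusters inside or outside the fibers, so this describes the groups and is no independent check. Plpp7, the targeted gene, was at 52.0 CPM (47.1 to 57.3, 408 UMIs) in Ctrl myonuclei and 41.7 CPM (37.0 to 46.9, 281 UMIs) in cKO. In Myh4-main nuclei, a class defined below, the order was the other way, 54.9 CPM in Ctrl and 62.1 in cKO, a log2 ratio of 0.18 (−0.10 to 0.45) for cKO over Ctrl with an interval that includes 0. Since 3′ ends were read, these UMIs say nothing on the deleted first exon.

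Myonuclei were grouped by their main myosin, the adult myosin heavy chain gene (Myh7, slow type I, or Myh2, Myh1 and Myh4, fast types IIa, IIx and IIb) with 60% or more of the nucleus's UMIs of these 4 genes, in nuclei with 3 or more such UMIs. Myh4-main nuclei numbered 1910 in Ctrl and 1425 in cKO, or 64.0% and 43.3% of myonuclei. Myh1-main nuclei numbered 301 and 380, and Myh2-main nuclei 166 and 326. Myh7-main nuclei were 19 in Ctrl and 275 in cKO. The 19 Ctrl nuclei held 40470 UMIs in all, so Ctrl values of that class are given but not ranked. The rest had mixed myosins (131 and 207 nuclei) or too few myosin UMIs (458 and 677).

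The genes lie on 8 chromosomes of GRCm38, and their positions are those of GENCODE M21. Pygm covers chr19:6384399-6398459 on the plus strand, Phka1 chrX:102513975-102644246 on the minus strand, Phkb chr8:85840959-86061376 on the plus strand and Phkg1 chr5:129863421-129898549 on the minus strand. Gys1 covers chr7:45434844-45456619 on the plus strand, Gbe1 chr16:70313949-70569716 on the plus strand, Ugp2 chr11:21321138-21371201 on the minus strand and Gyg chr3:20122084-20155317 on the minus strand. Phkg1 shares 630 exonic bases with Sumf2 and Gys1 shares 310 with Ruvbl2, in both cases a gene of the opposite strand. The counting program was run with its default parameters per the study's methods, and by default it counts only reads on the strand of the gene.

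All 8 genes had a promoter window in the RefSeq table for GRCm38.p6, 300 bases that run from 250 before to 50 after a transcription start, with a pair of windows for Ugp2. Motifs were searched on both strands: the E-box CANNTG, bound by myogenic factors, a MEF2-like site CTANNNNTA, and the estrogen-related receptor (ERR) motif TCAAGGTCA. E-boxes occurred in the windows of all 8 genes, 5 in Phkg1, 3 in Pygm, 2 each in Phka1, Gys1, Gbe1 and Gyg, and 1 in Phkb and in either window of Ugp2, against 72.3% of the 32817 windows in the table. The MEF2-like site occurred in Phka1, as a pair of overlapping matches, and in Gbe1, against 21% of windows. The ERR motif occurred in none of them, against 0.424% of windows. The windows of 4 genes are shown, the phosphorylase and synthase genes for the opposite ends of the pathway and the pair with a MEF2-like match. Capitals mark the matches of these motifs, written 5′ to 3′ along the gene's strand. A match is a run of letters and does not show that a factor binds.
Pygm, chr19:6384158-6384457, plus strand: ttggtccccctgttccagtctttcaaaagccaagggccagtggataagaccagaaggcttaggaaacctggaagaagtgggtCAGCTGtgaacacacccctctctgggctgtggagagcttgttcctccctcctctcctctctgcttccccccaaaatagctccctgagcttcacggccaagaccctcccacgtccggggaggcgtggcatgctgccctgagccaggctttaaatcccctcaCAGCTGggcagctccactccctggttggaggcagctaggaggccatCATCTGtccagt
Phka1, chrX:102644197-102644496, minus strand: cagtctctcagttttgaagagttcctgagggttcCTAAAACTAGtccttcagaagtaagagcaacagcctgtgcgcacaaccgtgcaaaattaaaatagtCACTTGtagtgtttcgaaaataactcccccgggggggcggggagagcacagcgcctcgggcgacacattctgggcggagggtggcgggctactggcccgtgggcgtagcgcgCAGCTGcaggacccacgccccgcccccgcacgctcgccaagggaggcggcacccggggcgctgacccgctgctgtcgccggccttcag
Gys1, chr7:45434589-45434888, plus strand: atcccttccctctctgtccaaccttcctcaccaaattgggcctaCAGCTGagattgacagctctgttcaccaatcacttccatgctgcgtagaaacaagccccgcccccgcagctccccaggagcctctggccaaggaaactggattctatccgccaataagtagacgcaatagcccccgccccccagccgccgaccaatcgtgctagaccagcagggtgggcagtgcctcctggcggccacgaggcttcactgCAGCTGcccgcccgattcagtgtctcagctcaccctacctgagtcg
Gbe1, chr16:70313699-70313998, plus strand: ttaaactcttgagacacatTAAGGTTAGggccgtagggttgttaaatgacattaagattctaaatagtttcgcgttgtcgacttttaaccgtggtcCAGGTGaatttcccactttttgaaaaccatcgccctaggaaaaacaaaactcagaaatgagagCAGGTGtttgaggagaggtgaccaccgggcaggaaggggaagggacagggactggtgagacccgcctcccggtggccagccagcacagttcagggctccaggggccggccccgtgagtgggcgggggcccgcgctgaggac

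The breakdown genes had their highest levels in Myh4-main nuclei, in Ctrl and in cKO alike, and the synthesis genes other than Gyg had theirs in Myh2-main or Myh1-main nuclei. Pygm was at 1564 CPM (1531 to 1598, 8406 UMIs) in Ctrl Myh4-main nuclei, 821 (650 UMIs) in Myh1-main and 629 (258 UMIs) in Myh2-main. In cKO the same classes held 1358 CPM (1317 to 1401, 3984 UMIs), 718 (635 UMIs) and 487 (334 UMIs). The phosphorylase gene was thus 2.48-fold higher in Myh4-main than in Myh2-main nuclei of Ctrl and 2.79-fold higher in cKO, with Myh1-main nuclei between them in both libraries. Its log2 ratio of Myh4-main over Myh2-main was 1.31 (1.13 to 1.50) in Ctrl and 1.48 (1.32 to 1.64) in cKO.

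The phosphorylase kinase genes followed the same order. Phka1, the α subunit, went from 2579.6 CPM in Ctrl Myh4-main nuclei to 1452 in Myh1-main and 1007 in Myh2-main, and from 1958 to 834 and 538 in cKO. Phkb, the β subunit shared with other tissues, went from 849 to 473 and 232 CPM in Ctrl and from 880.4 to 455 and 261 in cKO. Phkg1, the catalytic subunit, went from 2705 to 1664 and 956 CPM in Ctrl and from 3159 to 1663 and 804 in cKO. All 3 subunit genes stepped down from IIb over IIx to IIa nuclei, and for each step the interval of the ratio excluded equality. The Myh4-main over Myh2-main log2 ratio in Ctrl was 1.36 (1.22 to 1.50) for Phka1, 1.87 (1.58 to 2.18) for Phkb and 1.50 (1.36 to 1.65) for Phkg1. In cKO it was 1.86 (1.71 to 2.02), 1.75 (1.53 to 1.98) and 1.97 (1.85 to 2.10).

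Synthesis genes had the reverse order in Ctrl. Ugp2, the UDP-glucose enzyme, was at 1900.3 CPM (1769 to 2039, 779 UMIs) in Ctrl Myh2-main nuclei, 1398 (1107 UMIs) in Myh1-main and 391 (2102 UMIs) in Myh4-main. In cKO it was at 1186 CPM (1106 to 1271, 813 UMIs), 1352 (1195 UMIs) and 513 (1505 UMIs). Ugp2 had the widest spread of the 8 genes over these classes in Ctrl, 4.86-fold between Myh2-main and Myh4-main nuclei, and 2.31-fold in cKO. Gys1, the synthase, was at 732 CPM in Myh2-main, 582 in Myh1-main and 257 in Myh4-main nuclei of Ctrl, and at 521, 495 and 294 in cKO. Gbe1, the branching enzyme, was at 642, 545 and 288 CPM in Ctrl and at 406, 411 and 222 in cKO. For both genes the step from Myh1-main down to Myh4-main nuclei was clear in either library. In cKO, Myh2-main and Myh1-main nuclei could not be told apart at this depth, with Myh1-main over Myh2-main log2 ratios of −0.07 (−0.28 to 0.13) for Gys1 and 0.02 (−0.21 to 0.25) for Gbe1, and Ugp2 was slightly higher in Myh1-main nuclei, 0.19 (0.06 to 0.32).

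**Figure D1:**
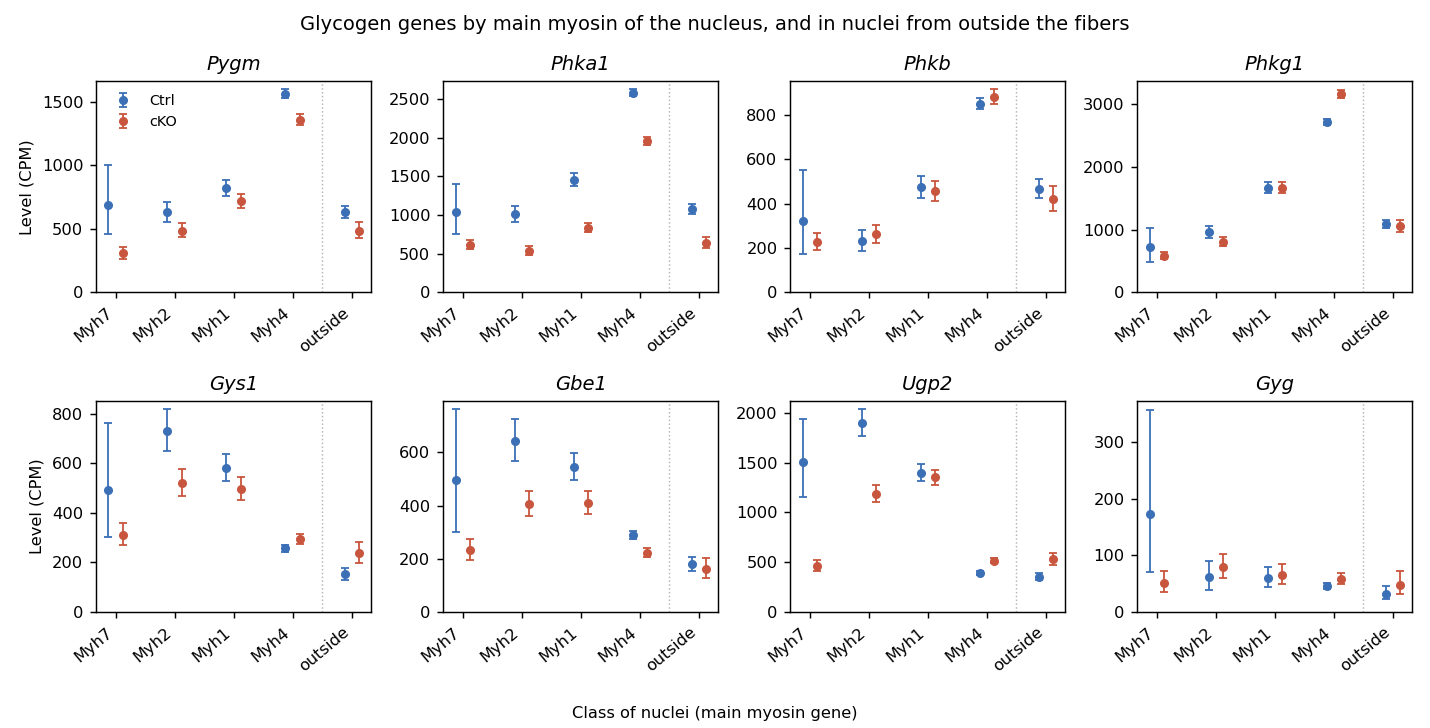
Level (CPM, linear axes that start at 0) of each of the 8 genes by main myosin of the nucleus and in nuclei from outside the fibers, with Ctrl in blue and cKO in red; points are the value of the single library and bars are 95% exact Poisson intervals for counting error. Pygm, Phka1, Phkb and Phkg1 are highest in Myh4-main nuclei, while Gys1, Gbe1 and Ugp2 are higher in Myh2-main and Myh1-main than in Myh4-main nuclei of both libraries, and Ctrl Myh7-main values have wide bars because they rest on 19 nuclei.

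The Myh4-main over Myh2-main log2 ratio in Ctrl was −2.28 (−2.40 to −2.16) for Ugp2, −1.51 (−1.69 to −1.33) for Gys1 and −1.16 (−1.35 to −0.96) for Gbe1. In cKO it was −1.21 (−1.33 to −1.08), −0.82 (−1.004 to −0.64) and −0.87 (−1.08 to −0.66). All 3 ratios were nearer to equality in cKO. How many of all genes moved likewise was not counted. In Myh2-main nuclei the difference between the libraries in these genes shrank without the nuclei of cluster 1, as given below. Gyg, the primer, was sparse, with 45.2 (243 UMIs) CPM in Ctrl Myh4-main and 61.0 (25 UMIs) in Myh2-main nuclei, and 58.3 (171 UMIs) and 78.8 (54 UMIs) in cKO. Its ratio was −0.43 (−1.03 to 0.22) in Ctrl and −0.43 (−0.88 to 0.03) in cKO, so no order was detectable at this depth.

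Counted at 1.5-fold, 4 of 8 genes were higher in Myh4-main than in Myh2-main nuclei of Ctrl, the 4 breakdown genes, where 24.0% of the 4114 genes with enough UMIs passed the same fold upward. Lower by 1.5-fold were 3 of 8, Gys1, Gbe1 and Ugp2, where 17.2% of genes passed downward. The cKO library gave the same names, 4 higher against 23.3% of 5372 genes and 3 lower against 14.3%. The median log2 ratio of the 8 genes was 0.44 in Ctrl and 0.52 in cKO, against 0.07 and 0.12 over all genes counted, a median that lies between the groups and describes neither. The UMIs of the 4 breakdown genes together gave a ratio of 1.45 (1.36 to 1.53) in Ctrl and 1.81 (1.74 to 1.89) in cKO. Those of the 4 synthesis genes gave −1.77 (−1.85 to −1.68) and −1.01 (−1.10 to −0.92).

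**Figure D2:**
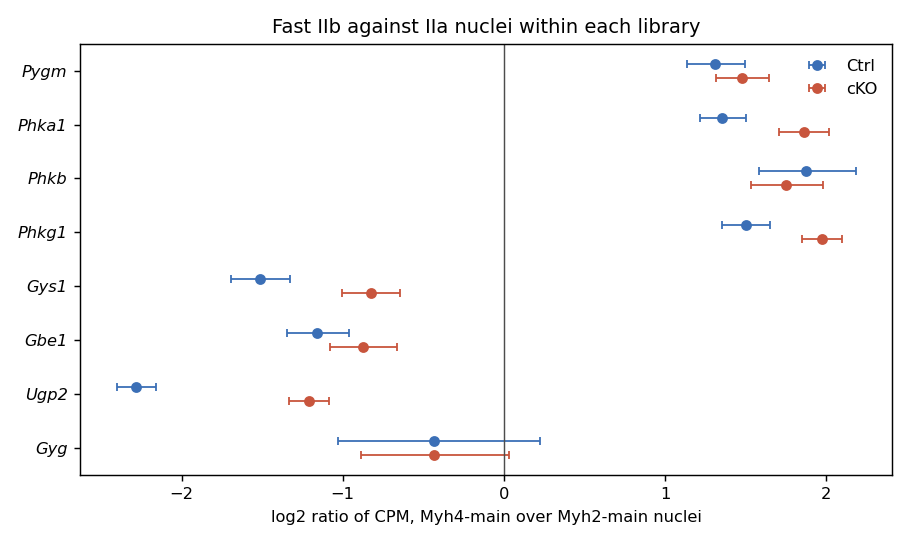
Log2 ratio of CPM in Myh4-main over Myh2-main nuclei (x axis) for each gene (y axis), with Ctrl in blue, cKO in red and 95% exact conditional intervals for counting error as bars. The 4 breakdown genes lie above 0 in both libraries, Gys1, Gbe1 and Ugp2 lie below 0 in both, and the intervals of Gyg include 0 in both.

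Nuclei from outside the fibers, which came from clusters with markers of fibro-adipogenic progenitors, endothelial, immune or satellite cells, also held UMIs of all 8 genes. In Ctrl their level was between 45.3% (Phkg1) and 67.4% (Gyg) of the myonuclear level, and in cKO between 50.7% (Phka1) and 78.7% (Gyg). Myh4, a gene that such cells should lack, stood at 56.6% and 57.3% of its myonuclear level there. Much of this came from outside nuclei whose main myosin was Myh4, 122 of 541 in Ctrl and 63 of 305 in cKO. They held 514 of the 683 Pygm UMIs and 847 of the 1171 Phkg1 UMIs of the Ctrl outside nuclei. Without them, an alternative chosen after the data were seen and one that by its construction lowers Myh4, the outside level in Ctrl was 19.6% of the myonuclear level for Pygm, 24.6% for Phka1, 21.5% for Phkg1, 41.4% for Phkb, 40.0% for Gys1, 48.0% for Gbe1, 54.2% for Ugp2 and 62.7% for Gyg, and in cKO it was between 29.4% (Phkg1) and 83.3% (Gyg). Pygm stood at 629 CPM in Ctrl Myh2-main nuclei and 268 in the remaining outside nuclei, Phka1 at 1007 and 552, and Phkg1 at 956 and 514, where the level over all outside nuclei was 632, 1073 and 1083 CPM. All 3 genes were thus above the remaining outside nuclei in this class. Phkb was below them, at 232 against 306 CPM, and Ugp2 in Ctrl Myh4-main nuclei was near them, at 391 against 349 CPM. In cKO Myh7-main nuclei, Pygm was at 308 against 278 CPM, Phkb at 228 against 264 and Phkg1 at 583 against 598. Ugp2 was at 464 against 499 CPM and Gyg at 50.8 against 51.0. For these genes slow nuclei were near the remaining outside nuclei. Higher values in slow nuclei were found for Phka1, at 616 against 445 CPM, Gys1, at 311 against 204, and Gbe1, at 231 against 164. The part of free RNA in the values of the fiber classes was not tested.

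Slow nuclei were numerous enough to be ranked in cKO only. In its 275 Myh7-main nuclei the 8 genes together had 2793 CPM, against 8443 in Myh4-main nuclei. Pygm was at 308 CPM (266 to 355, 188 UMIs), 4.41-fold below its Myh4-main level. Phkg1 was at 583 CPM (524 to 647, 356 UMIs), 5.41-fold below, the widest gap of the 8 genes. The synthesis genes, in contrast, were about level between slow and IIb nuclei of cKO. Their Myh4-main over Myh7-main log2 ratios there were −0.08 (−0.31 to 0.15) for Gys1 and −0.06 (−0.33 to 0.21) for Gbe1. For Ugp2 the ratio was 0.15 (−0.04 to 0.33), and for Gyg 0.20 (−0.36 to 0.80). By count, 4 of 8 genes were higher in Myh4-main nuclei, against 23.5% of 5073 genes, and 0 of 8 lower, against 15.0%. Ugp2 was 2.56-fold higher in Myh2-main than in Myh7-main nuclei of cKO. In Ctrl the Myh4-main over Myh7-main log2 ratio was −0.95 (−1.58 to −0.23) for Gys1 and −0.78 (−1.41 to −0.07) for Gbe1. It was −1.95 (−2.31 to −1.55) for Ugp2 and −1.94 (−3.00 to −0.61) for Gyg. The synthesis genes thus had higher values in the slow nuclei of Ctrl, on 7 to 61 UMIs per gene there. The 19 Ctrl Myh7-main nuclei had 1507 CPM (1153 to 1936, 61 UMIs) of Ugp2 where cKO had 464 CPM (411 to 521, 283 UMIs), and 692 (28 UMIs) CPM of Pygm where cKO had 308 (188 UMIs). All 8 genes had a lower value in cKO than in Ctrl in this class, and for Phkb, Phkg1 and Gys1 the interval of the ratio included equality. How many of all genes were lower in cKO in this class was not counted. The shared direction is therefore no result particular to the 8 genes.

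Between the libraries, Phka1 was the gene with the largest difference over all myonuclei. It was at 2239 CPM (2206 to 2272, 17575 UMIs) in Ctrl and 1268 CPM (1241 to 1295, 8544 UMIs) in cKO, a log2 ratio of −0.82 (−0.86 to −0.78). Pygm was at 1369.8 CPM (1344 to 1396, 10753 UMIs) and 908 CPM (885 to 931, 6119 UMIs), a ratio of −0.59 (−0.64 to −0.55). These 2 of 8 genes were lower in cKO by 1.5-fold or more, where 10.4% of 9264 genes passed downward, and 0 of 8 were higher by that fold, where 7.37% passed. Pygm passed narrowly, at 1.51-fold, and its call ended with doublets kept (a ratio of −0.58), under each of 3 other scalings (−0.50 to −0.53), over all nuclei that passed the filters (−0.54) and without the nuclei of cluster 1 (−0.28), described below. Phka1 lost its call in the last of these alone, with −0.54. Phkb, Gbe1 and Phkg1 were lower by less, with ratios of −0.31 (−0.37 to −0.25), −0.31 (−0.39 to −0.22) and −0.23 (−0.26 to −0.20). Gys1, Ugp2 and Gyg were higher in cKO, at 369.8 against 333 CPM, 746 against 643, and 61.3 against 48.0, with ratios of 0.15 (0.07 to 0.23), 0.21 (0.16 to 0.27) and 0.35 (0.15 to 0.56). The median over the 8 genes was −0.27, and over all genes counted −0.08. With totals that omit Malat1 and the mitochondrial genes, as an alternative, the ratio of the 8 genes together moved from −0.37 to −0.28. The summed breakdown genes had a ratio of −0.49 (−0.51 to −0.47) and the summed synthesis genes 0.09 (0.05 to 0.13).

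As classed at their own depths, the libraries differed in class makeup, and within classes the differences in level were of another size. In Myh4-main nuclei, 0 of 8 genes passed 1.5-fold upward, against 5.94% of 7728 genes, and 0 of 8 downward, against 8.99%. In Myh1-main nuclei 0 of 8 passed upward, against 7.21% of 3578 genes, and 1 of 8 downward, Phka1, against 10.0%. In Myh2-main nuclei 0 of 8 passed upward, against 5.77% of 2671 genes, and 3 of 8 downward, Phka1, Gbe1 and Ugp2, against 13.9%. The calls for Gbe1 and Ugp2 ended under each of the 3 other scalings, with Myh2-main ratios of −0.52 to −0.41 for Gbe1 and −0.54 to −0.50 for Ugp2, and with classes set in thinned nuclei, with −0.20 and −0.23. Both also ended without cluster 1, with −0.33 and −0.24. Phka1 passed under these alternatives. The median log2 ratio of the 8 genes was 0.12 in Myh4-main, −0.13 in Myh1-main and −0.43 in Myh2-main nuclei, against −0.04, −0.08 and −0.14 over all genes counted in these classes. The Malat1 share of UMIs was 26.5% in Ctrl and 28.5% in cKO Myh4-main nuclei, and 25.1% and 33.6% in Myh2-main nuclei. Totals that omit Malat1 and the mitochondrial genes moved the Myh2-main ratio of the 8 genes together from −0.52 to −0.35.

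Phka1 was lower in cKO in all 6 groups of myonuclei, the mixed nuclei and those with few myosin UMIs included. Its log2 ratio was −0.40 (−0.44 to −0.35) in Myh4-main, −0.80 (−0.94 to −0.67) in Myh1-main, −0.90 (−1.11 to −0.70) in Myh2-main and −0.75 (−1.21 to −0.26) in Myh7-main nuclei. It was also lower in the outside nuclei, where the ratio was −0.74 (−0.92 to −0.56). Of the Phka1 UMIs of outside nuclei, 812 of 1160 in Ctrl and 163 of 320 in cKO were in Myh4-main ones, and without these the ratio was −0.31 (−0.59 to −0.03). Pygm and Gbe1 also had intervals below 0 in all 6 groups. In Myh4-main nuclei they had −0.20 (−0.26 to −0.15) and −0.38 (−0.51 to −0.24), and in Myh2-main nuclei −0.37 (−0.61 to −0.13) and −0.66 (−0.91 to −0.41). The Myh2-main ratio of Pygm was −0.19 with Malat1 and mitochondrial genes left out of the total. It was −0.18 without cluster 1 and −0.0553 at 80% main myosin, so its size was not stable. How many of all genes had such intervals in all 6 groups was not counted.

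The other kinase subunits followed Phka1 in some groups of nuclei and not in others. Phkb was at 849 CPM in Ctrl and 880.4 in cKO Myh4-main nuclei, a log2 ratio of 0.05 (−0.02 to 0.12), and its interval included 0 in 5 of the 6 groups. In the nuclei with few myosin UMIs Phkb was lower in cKO, −0.64 (−0.82 to −0.45). Phkg1 was at 2705 CPM in Ctrl and 3159 in cKO Myh4-main nuclei, higher in cKO by 0.22 (0.19 to 0.26). In Myh1-main nuclei Phkg1 had nearly the same level in both libraries, 1664 and 1663 CPM, and in Myh2-main nuclei it had a ratio of −0.25 (−0.44 to −0.06). That value was between −0.0736 and −0.1103 under the 3 other scalings, −0.1051 with classes set in thinned nuclei, −0.0467 at 80% main myosin and 0.0104 without cluster 1, so a lower level in this class was not stable. Phkg1 was lower in cKO in the mixed nuclei, −0.45 (−0.59 to −0.31), and in those with few myosin UMIs, −0.78 (−0.88 to −0.67). The α, β and γ genes therefore differed in size and direction between the libraries within the most abundant class, although their order over fiber types was shared.

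Ugp2 and Gys1 had opposite directions in IIb and IIa nuclei. Ugp2 was higher in cKO Myh4-main nuclei, with a log2 ratio of 0.39 (0.30 to 0.49), and lower in cKO Myh2-main nuclei, with −0.68 (−0.82 to −0.54). Gys1 had 0.20 (0.07 to 0.32) in Myh4-main, −0.23 (−0.42 to −0.04) in Myh1-main and −0.49 (−0.72 to −0.26) in Myh2-main nuclei. Gyg rested on 377 UMIs in Ctrl and 413 in cKO myonuclei and was higher in cKO Myh4-main nuclei, by 0.37 (0.08 to 0.66), while its interval included 0 in Myh1-main and Myh2-main nuclei. The outside nuclei also had higher Gys1 and Ugp2 in cKO, with ratios of 0.64 (0.29 to 0.99) and 0.58 (0.35 to 0.81), with 0.62 (0.14 to 1.09) and 0.52 (0.22 to 0.81) without the Myh4-main ones among them, and the part of free RNA in the higher Myh4-main values was not tested.

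**Figure D3:**
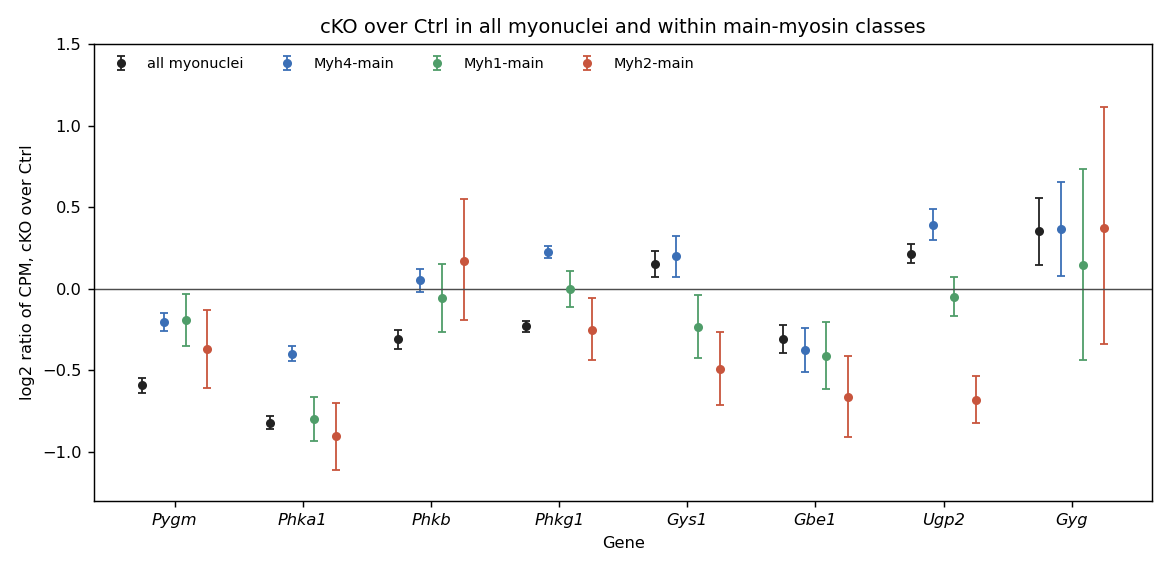
Log2 ratio of CPM in cKO over Ctrl (y axis) for each gene (x axis) in all myonuclei and in Myh4-main, Myh1-main and Myh2-main nuclei, with 95% exact conditional intervals for counting error as bars. Phka1, Pygm and Gbe1 lie below 0 in all 4 sets, and Ugp2, Gys1 and Phkg1 lie above 0 in Myh4-main and below 0 in Myh2-main nuclei.

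Weighting the cKO class levels by the Ctrl class shares gave a ratio at an equal mix of these classes, mixed nuclei and those with few myosin UMIs included. The classes depend on the UMIs per nucleus, so this is not the ratio at a known fiber makeup. For Pygm the weighting moved the log2 ratio over all myonuclei from −0.59 to −0.29 (−0.33 to −0.24), and for Phka1 from −0.82 to −0.50 (−0.54 to −0.46). Phkb went from −0.31 to −0.01 (−0.07 to 0.05), and Phkg1 changed side, from −0.23 to 0.11 (0.08 to 0.14). For the synthesis genes it went from 0.15 to 0.04 (−0.05 to 0.12) for Gys1, from 0.21 to 0.06 (0.001 to 0.12) for Ugp2, from −0.31 to −0.43 (−0.52 to −0.34) for Gbe1 and from 0.35 to 0.33 (0.12 to 0.55) for Gyg. At this equal mix of classes, Phka1, Gbe1 and Pygm were lower in cKO and Phkb differed by less than counting error. The sum of the breakdown genes stood at −0.16 (−0.18 to −0.14) and that of the synthesis genes at −0.04 (−0.09 to −0.001). The sum of all 8 genes stood at −0.14 at the Ctrl makeup, and at −0.37 where the classes were set in nuclei thinned to 500 UMIs. Thinning left 80.4% of Ctrl and 70.1% of cKO myonuclei with under 3 myosin UMIs and so in no fiber class, and the weighting then adjusted little for the fiber makeup.

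One cluster of myonuclei had large differences. Cluster 1, led by Myh7, Tnnc1, Myh7b, Tnni1 and Tnnt1, had 342 Ctrl and 964 cKO nuclei, so that 73.8% of its nuclei were from cKO. In it, Pygm was at 729 CPM (674 to 787, 651 UMIs) in Ctrl and 363 CPM (339 to 388, 843 UMIs) in cKO. Phkg1 was at 1567 CPM (1486 to 1651, 1399 UMIs) and 752 CPM (717 to 788, 1748 UMIs). Gbe1 was at 545 CPM (498 to 596, 487 UMIs) and 239.7 CPM (220.2 to 261, 557 UMIs). Of the 8 genes, 6 had lower values in cKO nuclei of cluster 1, with log2 ratios of −1.01 (−1.16 to −0.86) for Pygm, −1.07 (−1.18 to −0.95) for Phka1, −0.78 (−0.95 to −0.61) for Phkb, −1.06 (−1.16 to −0.96) for Phkg1, −1.19 (−1.36 to −1.01) for Gbe1 and −0.67 (−0.82 to −0.51) for Ugp2. Gys1, at 0.22 (−0.01 to 0.45), and Gyg, at 0.21 (−0.30 to 0.74), had intervals that included 0. How many of all genes were lower in cKO nuclei of cluster 1 was not counted. The count of 6 of 8 is therefore no result particular to these genes. The libraries had different myosin makeups in this cluster, and its Ctrl nuclei did not stay together. Clustered again with doublets kept, 164 of the 342 Ctrl and 907 of the 964 cKO nuclei fell into a cluster with Mhrt, Myh6 and Myh7 among its leading genes, and 145 Ctrl and 18 cKO nuclei into one led by Plekhh1, Tmem100 and Shroom3. The nuclei compared in cluster 1 may therefore not be of like kind. Among those 164 and 907 nuclei, an alternative chosen after the data were seen, the ratio was −0.90 (−1.10 to −0.70) for Pygm, −1.11 (−1.26 to −0.96) for Phka1, −0.51 (−0.74 to −0.28) for Phkb, −0.70 (−0.85 to −0.55) for Phkg1, −0.98 (−1.22 to −0.74) for Gbe1, −1.11 (−1.29 to −0.93) for Ugp2 and −0.26 (−0.52 to 0.004) for Gys1, and −0.20 (−0.81 to 0.45) for Gyg. The values of Gys1 and Gyg lay on the other side of 0 than in the whole cluster, with intervals that included 0 both times. Among its Myh4-main nuclei alone, 144 in Ctrl and 84 in cKO, the ratio was −0.67 (−0.97 to −0.39) for Pygm, −0.85 (−1.07 to −0.63) for Phka1, −0.47 (−0.65 to −0.29) for Phkg1 and −1.37 (−1.82 to −0.94) for Gbe1.

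Cluster 0, with Pdzd7 and Amd1 among its leading genes and holding 1737 Ctrl and 1308 cKO nuclei, had smaller differences for the genes other than Gyg, and not all in the same direction. Phka1 was lower in cKO there, −0.34 (−0.39 to −0.29), as was Pygm, −0.15 (−0.21 to −0.09), while Phkg1 was higher, 0.29 (0.25 to 0.33), as was Ugp2, 0.40 (0.29 to 0.52). In cluster 2, led by Nr4a3 and Myh1, Phka1 was at 1933 CPM in Ctrl and 1144 in cKO, a ratio of −0.76 (−0.86 to −0.65), and Ugp2 at 1245 and 1838, a ratio of 0.56 (0.46 to 0.66). In cluster 3, led by Myh2 and Lgi1, Phka1 had a ratio of −0.83 (−1.01 to −0.66) and Ugp2 of −0.12 (−0.25 to −0.004). Cluster 6, with all 5 markers of the myotendinous junction, and cluster 7, with all 6 of the neuromuscular junction, also had lower Phka1 in cKO, −0.55 (−0.76 to −0.35) and −0.57 (−1.02 to −0.13). Phka1 was the only one of the 8 genes whose interval lay below 0 in all 6 myonuclear clusters. Pygm did so in 5 of 6, and Gbe1, Phkg1 and Ugp2 in 2 of 6. How many of all genes had such intervals was not counted. Without cluster 1, an alternative chosen after the data were seen, the ratio over all myonuclei was −0.54 for Phka1, −0.28 for Pygm, −0.09 for Gbe1, −0.04 for Phkb, 0.12 for Phkg1, 0.29 for Gys1, 0.54 for Ugp2 and 0.42 for Gyg, and 0 of 8 genes passed 1.5-fold. In Myh2-main nuclei without cluster 1 it was −0.84 for Phka1, −0.33 for Gbe1, −0.24 for Ugp2 and −0.14 for Gys1, and Phkg1 changed side, to 0.0104.

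**Figure D4:**
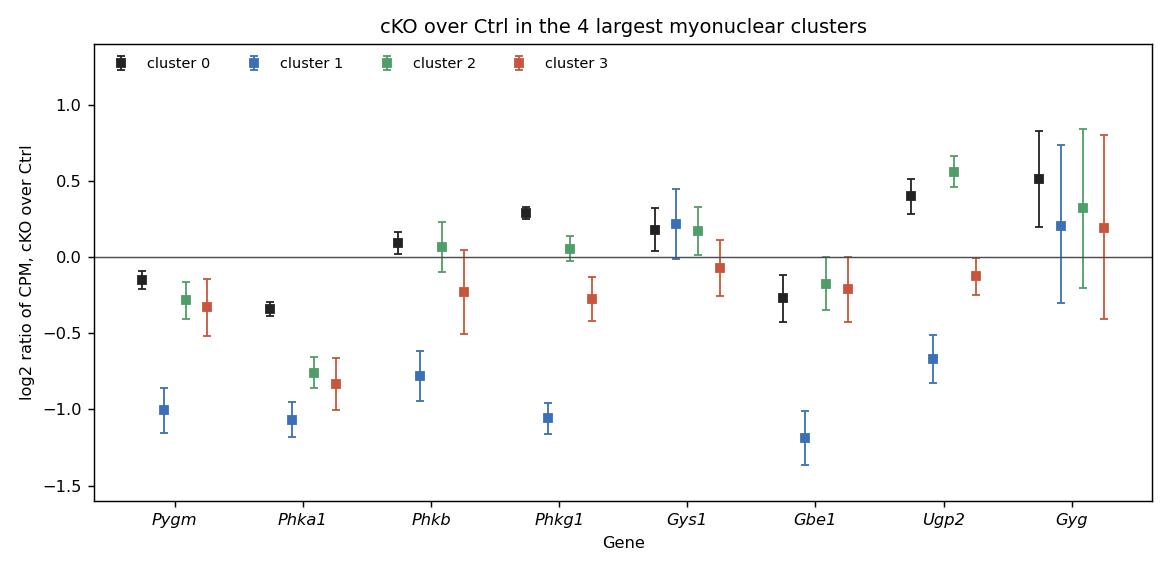
Log2 ratio of CPM in cKO over Ctrl (y axis) for each gene (x axis) in clusters 0, 1, 2 and 3, the 4 largest myonuclear clusters, with 95% exact conditional intervals for counting error as bars. Cluster 1 lies lowest for every gene but Gys1 and Gyg, and Phka1 lies below 0 in all 4 clusters.

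The share of nuclei with a UMI was compared after every nucleus had been thinned to 500 UMIs, since Ctrl nuclei held more UMIs each. Pygm was seen in 52.7% (50.5 to 55.0) of Ctrl and 49.3% (46.7 to 52.0) of cKO Myh4-main nuclei, and in 15.0% (12.1 to 18.3) and 16.1% (12.1 to 20.7) of the outside nuclei. Before thinning these shares were 92.6%, 84.3%, 35.9% and 36.4%, at median depths of 2318, 1657, 1299 and 1174 UMIs. Phka1 was seen in 66.1% (64.0 to 68.2) of Ctrl and 56.7% (54.1 to 59.3) of cKO Myh4-main nuclei, and in 38.6% (31.1 to 46.4) and 20.6% (16.3 to 25.4) of Myh2-main nuclei. The outside nuclei gave 24.4% (20.8 to 28.2) and 24.6% (19.9 to 29.8), so that the share of cKO Myh2-main nuclei with Phka1 was not above that of the outside nuclei. Without the Myh4-main ones, the outside shares of thinned nuclei were 10.0% and 11.6% for Pygm, 17.9% and 19.0% for Phka1 and 11.7% and 14.9% for Ugp2. Before thinning the Phka1 shares were 95.5% and 88.9% in Myh4-main, 81.9% and 58.3% in Myh2-main and 45.3% and 46.2% in outside nuclei. Ugp2 showed the opposite fiber preference in single nuclei too, with 56.0% (48.1 to 63.7) of Ctrl Myh2-main and 15.7% (14.1 to 17.4) of Ctrl Myh4-main nuclei, and 43.6% (38.1 to 49.1) and 20.8% (18.8 to 23.0) in cKO. Its outside shares were 12.6% (9.89 to 15.7) and 16.7% (12.7 to 21.4). Before thinning the Ugp2 shares were 86.7%, 53.2%, 71.8% and 51.2% in the same order, and 29.2% and 36.4% outside.

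A list of 27 related genes held further enzymes, isoforms and regulators of the pathway, of which 20 had enough UMIs to be counted over all myonuclei. By 1.5-fold, 0 of 20 were higher in cKO, against 7.37% of all genes, and 1 of 20 lower, against 10.4%, a share below that of all genes. It is the gene listed as Pgm2, whose Ensembl identifier belongs to Pgm1 in GENCODE M21, the phosphoglucomutase that links glucose 1-phosphate to glycolysis. It was at 685 CPM (667 to 704, 5377 UMIs) in Ctrl and 456 CPM (439.5 to 472, 3070 UMIs) in cKO, and 5.24-fold higher in Myh4-main than in Myh2-main nuclei of Ctrl. Its fold was 1.50, and the call ended under the 3 other scalings (log2 ratios of −0.48 to −0.51), over all nuclei that passed the filters (−0.54) and without cluster 1 (−0.20). At the Ctrl class makeup its log2 ratio went from −0.59 to −0.18 (−0.25 to −0.12), and in Myh4-main nuclei it was −0.08 (−0.16 to −0.01). Ppp1r3a and Ppp1r3c bring protein phosphatase 1 to glycogen, where it turns the synthase on and the phosphorylase off. Ppp1r3a was at 421 CPM in Ctrl and 316 in cKO and Ppp1r3c at 324 and 222, with ratios of −0.41 (−0.49 to −0.33) and −0.55 (−0.64 to −0.45). For Ppp1r3a the ratio was −0.03 (−0.13 to 0.07) in Myh4-main, −0.78 (−1.01 to −0.55) in Myh1-main and −0.54 (−0.91 to −0.16) in Myh2-main nuclei, and for Ppp1r3c −0.32 (−0.44 to −0.21), −0.34 (−0.67 to −0.01) and −0.65 (−1.04 to −0.26). Unlike the synthase, both were higher in Myh4-main than in Myh2-main nuclei of Ctrl, by 0.65 (0.38 to 0.94) and 0.48 (0.20 to 0.78) on the log2 scale. Slc2a4, the insulin-dependent glucose transporter, was at 32.5 and 38.9 CPM, a ratio of 0.26 (0.005 to 0.51). Of isoforms known from other tissues, the synthase of liver and the phosphorylases of liver and brain were nearly absent from myonuclei, with 2 and 6 UMIs of Gys2, 2 and 4 of Pygl and 3 and 5 of Pygb in Ctrl and cKO. The kinase isoforms of liver were present at a low level, with 29.7 and 26.4 CPM of Phka2 and 11.5 and 15.1 of Phkg2. Pygb had 24 UMIs in the outside nuclei of Ctrl, where it was at 22.2 CPM against 0.382 in myonuclei. Gys2, Pygl, Pygb, Phka2, Phkg2 and Calm2 were named after their values were seen. Within Myh4-main nuclei, 18 related genes could be counted, and 1 was higher by 1.5-fold, near the 5.94% of all genes. It was Calm2, one of the genes for calmodulin, which serves as the δ subunit of phosphorylase kinase, at 205 CPM in Ctrl and 340.3 in cKO. In Myh2-main nuclei 2 of 11 were lower, against 13.9%, and 1 higher, against 5.77%. Calm2 was among the lower, at 75.6 and 42.3 CPM, a log2 ratio of −0.84 (−1.62 to −0.06). In Myh1-main nuclei 2 of 14 were lower, against 10.0%, and 1 higher, against 7.21%.

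Over the 7 main-myosin classes of both libraries with at least 100000 UMIs, the breakdown genes had profiles like each other, as had Gys1, Gbe1 and Ugp2. Pearson's r of log2(CPM + 1) between the breakdown genes ran from 0.87 (Phka1 and Phkb) to 0.97 (Phkb and Phkg1), and between Gys1, Gbe1 and Ugp2 from 0.92 (Gbe1 and Ugp2) to 0.99 (Gys1 and Ugp2). Between a breakdown gene and Gys1, Gbe1 or Ugp2 it ran from −0.58 (Phkb and Gys1) to −0.13 (Pygm and Gbe1). Gyg, with few UMIs, had r of 0.66 with Gys1, 0.46 with Gbe1 and 0.70 with Ugp2, and from −0.61 (Phka1) to −0.31 (Phkg1) with the breakdown genes. The 7 points share 2 libraries and a class rule based on myosin UMIs, so these values describe and do not test. The sum of the 8 genes over these classes was most like Tmod1, Amy1, Atp2a1, Fut8 and Pon3 among 3330 genes, with r from 0.986 to 0.989. Atp2a1 encodes the calcium pump of fast fibers and Tmod1 a capping protein of the thin filament. The sum is carried by the breakdown genes, which held 52892 of the 63706 UMIs of the 8 genes in Ctrl myonuclei.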

How the data were processed

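The authors isolated nuclei from pooled GP muscles, made droplet 3′ libraries and ran Cell Ranger 3.1.0 (version per the submitters' processing notes) on mm10/GRCm38 with default parameters. The deposited matrices hold raw UMI counts per gene and barcode, deposited without normalization, for 1 Ctrl and 1 cKO library. The labels name an older kit release than the study's methods, and the annotation release is not given in the sources used here.

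Nuclei with at least 100 genes, at least 500 UMIs and at most 10% mitochondrial UMIs were kept. Scrublet (scanpy 1.11.5) marked 0 nuclei, so the 8% with the highest scores per library were removed, 307 in Ctrl and 313 in cKO. Clustering used Seurat 5.3.0 with sctransform 0.4.2 in R 4.3.3 (3000 integration features, 25 principal components, resolution 0.3, seed 1) and gave 10 clusters. A cluster was placed outside the fibers where at least 3 markers of a non-fiber cell type were detected (at least 10 UMIs and a level 2 times that of other nuclei), and more of them than fiber markers. The FAP-like cluster also held satellite, adipocyte and tenocyte markers, and the endothelial-like cluster smooth muscle markers.

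Raw counts of each class were added up within a library and expressed as CPM with exact Poisson intervals. Ratios have exact conditional intervals, shares exact Clopper-Pearson intervals, and sums at the Ctrl class makeup an interval from the Poisson variance. All are 95% intervals for counting error. With 1 library per group there was no test. A gene was counted in a comparison with at least 50 UMIs over both sides and at least 10 expected on the smaller side, and called at 1.5-fold. A side at 0 was set to 3 UMIs. Of 27998 gene identifiers, 27722 were found in GENCODE M21. The 8 genes, the related list and the motifs were chosen with earlier results of these data known. The genes named are the 8 members, related genes past 1.5-fold over all myonuclei, Ppp1r3a, Ppp1r3c and Slc2a4, and the 5 genes whose profile was most like the sum, besides those said to be named after their values were seen. Some further genes fixed for naming are not reported here. Ratio code was tested on simulated data. The software was Python 3.11.15 with scipy 1.17.1, numpy 2.4.6, matplotlib 3.10.9 and pandas 2.3.3. In all, 14 alternatives were tried.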

Additional observations from a re-analysis of the deposited data

Results flagged for a closer look

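For Ugp2, Phkg1 and Gys1 the cKO and Ctrl libraries differed in opposite directions in different classes of nuclei, with intervals for counting error on either side of 0. The log2 ratio of cKO over Ctrl for Ugp2 was 0.39 in Myh4-main nuclei and −0.68 in Myh2-main nuclei. For Phkg1, the catalytic subunit of phosphorylase kinase, it was 0.22 in Myh4-main and −0.25 in Myh2-main nuclei, and the second value shrank to between −0.0736 and −0.1103 under the 3 other scalings, −0.1051 with classes set in thinned nuclei and −0.0467 at 80% main myosin. For Gys1, the synthase, it was 0.20 in Myh4-main, −0.23 in Myh1-main and −0.49 in Myh2-main nuclei. The difference between the classes was not tested, since each class had 1 library per group. Without cluster 1 the Myh2-main ratio was −0.24 for Ugp2, 0.0104 for Phkg1 and −0.14 for Gys1.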

How the results depend on the processing

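With 1 library per group no library could be left out, and no paired analysis was possible because Ctrl and cKO share only replicate number 1 and no test was made. Values here are log2 ratios of the summed 8 genes, unless a gene is named. For cKO over Ctrl, the ratio over all myonuclei (−0.37) was −0.28 with Malat1 and mitochondrial genes left out of the total, −0.29 with the median of all genes subtracted, −0.30 averaging CPM over nuclei, −0.32 over all nuclei that passed the filters and −0.0771 without cluster 1. At the Ctrl class makeup (−0.14) the same alternatives gave −0.0819, −0.0618, −0.094, −0.11 and −0.0266, and the ratio was −0.16 with doublets kept, −0.37 with classes set in thinned nuclei, of which 80.4% in Ctrl and 70.1% in cKO had under 3 myosin UMIs, and −0.19 with at least 5 myosin UMIs. In Myh4-main nuclei (−0.04) it was −0.0652 with doublets kept, −0.0001 without Malat1 and mitochondrial genes, −0.0004 with the median subtracted, −0.0059 averaging over nuclei, −0.0152 at 80% main myosin, and 0.0011, a change of side, without cluster 1. In Myh1-main nuclei (−0.22) it was −0.11, −0.15 and −0.16 under the 3 scalings in the same order, and 0.0104, a change of side, without cluster 1. In Myh2-main nuclei (−0.52) it was −0.35, −0.38 and −0.38 under the scalings, −0.27 with thinned classes, −0.41 at 80% and −0.25 without cluster 1. In the outside nuclei, Pygm (−0.38) changed side, to 0.0526, without those whose main myosin was Myh4. Without cluster 1, Phkg1 changed side over all myonuclei, to 0.12, and in Myh2-main nuclei, to 0.0104. The count of genes past 1.5-fold over all myonuclei (2) was 1 with doublets kept, under each of the 3 scalings and over all nuclei, and 0 without cluster 1 or at 2-fold.

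For Myh4-main over Myh2-main nuclei in Ctrl (0.49), the ratio was 0.43 with the median subtracted and 0.73 with thinned classes. In cKO (0.98) it was 0.87, 0.86 and 0.88 under the 3 scalings and 0.77 without cluster 1. For Myh4-main over Myh7-main in cKO (1.60) it was 1.47 with doublets kept, 1.49 without Malat1 and mitochondrial genes, 1.49 with the median subtracted, 1.47 with thinned classes, 1.69 at 80% and 1.04 without cluster 1. The cause of these shifts was not tested, beyond the removed nuclei themselves. With no minimum of UMIs, 18.7% of 18724 genes were higher and 20.4% lower by 1.5-fold over all myonuclei. Depth limits Gyg in all classes and every gene in Ctrl Myh7-main nuclei.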

Other observations

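Among the related genes, some that act beside the 8 described differed between fiber types. They were named after their values were seen. Prkag3, which encodes the γ3 subunit of AMP-activated protein kinase, an energy sensor of fast glycolytic muscle, was at 573 CPM in Ctrl Myh4-main and 58.5 CPM in Ctrl Myh2-main nuclei, and at 838 and 109 CPM in cKO. Its log2 ratio of cKO over Ctrl was 0.55 (0.47 to 0.62) in Myh4-main, 0.82 (0.54 to 1.11) in Myh1-main and 0.90 (0.22 to 1.63) in Myh2-main nuclei, higher in cKO in all 3 fast classes, while it was −0.39 (−0.62 to −0.17) in nuclei with few myosin UMIs and 0.12 (0.05 to 0.18) over all myonuclei. The nuclei from outside the fibers held 222 and 241 CPM in Ctrl and cKO, above the Myh2-main values. Hk2, the hexokinase that traps glucose in the fiber, had the opposite order by a smaller margin, 1.46-fold in Ctrl and 1.63-fold in cKO, at 237 CPM in Ctrl Myh4-main and 346 CPM in Ctrl Myh2-main nuclei, and at 229 and 374 CPM in cKO. Calm2, one of the genes for calmodulin, was higher in Myh4-main than in Myh2-main nuclei. The log2 ratio was 1.44 (0.93 to 2.01) in Ctrl and 3.01 (2.48 to 3.59) in cKO, on 31 and 29 UMIs in the Myh2-main nuclei. Those held 75.6 CPM in Ctrl and 42.3 in cKO, below the 111 and 129 CPM of the nuclei from outside the fibers.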
